A study of Mus musculus with 21 samples.

Results

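The serine/threonine phosphatase genes of the mouse cortex were taken as every row whose gene symbol begins with Ppp1 to Ppp6 or with Ppm1, leaving out the calcineurin catalytic genes Ppp3ca and Ppp3cb. By this rule 49 of the 5544 genes in the table were members, out of 85 protein-coding genes of the mouse annotation with such symbols, and the others were not analysed here. There were 19 PP1 genes, 13 PP2A genes, 1 calcineurin (PP2B) regulatory gene, 9 genes of PP4 to PP6 and 7 PPM genes. All libraries came from male mice aged 12 weeks, labelled wild type (WT) and C57BL/6 (C57Bl/6J in the study's methods). They held RNA of the cortex taken 24 h after the last procedure, with 1 library for each mouse. HF-HI mice (n = 11) had received high-frequency head impacts, 5 a day for 6 days and 30 in all, under isoflurane. Sham mice (n = 10) were handled and anesthetized on the same schedule but were not hit. The question was how the subunits of these enzymes differed between the groups. The whole cortex was homogenized, so fewer cells of a type and less RNA per cell cannot be told apart.

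Serine/threonine phosphatases remove the phosphate groups that protein kinases place on proteins, and at synapses they act against kinases such as CaMKII and PKA. PP1 and PP2A have few catalytic subunits, and a large set of regulatory subunits decides where the enzyme sits and what it acts on. Calcineurin is switched on by calcium and calmodulin and is known for its part in long-term depression. The PPM enzymes form a separate family that needs magnesium or manganese and carries its regulatory parts within the same chain.

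Every value below is a deposited variance-stabilized expression value on a log2 scale, and a difference is the HF-HI mean minus the sham mean, with its standard error. Folds on this scale understate the change of low genes. Differences were tested with limma across all 5544 genes, and a gene is called higher or lower where its Benjamini-Hochberg adjusted p was under 0.05. Most genes passed: 66.3% of all genes were called, 32.6% higher and 33.6% lower in HF-HI.

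The libraries differed in ways that bear on these genes. The trend of a library's values with the GC content of the exons ran from -0.23 to 0.0058 log2 per 10 percentage points in sham and from -0.039 to 0.16 in HF-HI (permutation test, two-sided, p = 1e-04). Over all genes, the median difference rose from -0.17 at 36 to 38% GC to 0.42 at 62 to 64% GC. Whether this trend had a part in a result was not tested. Differences after removal of the trend are given below for members and named partners. They are given wherever the removal ended or made a call, turned a sign or moved a value by more than 1.5 times. For cell type markers, counts after removal are given. Relative depth ran from 0.58 to 1.26 in sham and from 0.55 to 1.64 in HF-HI. HF-HI replicate 9, with a relative depth of 0.57 and the GC trend of -0.039, stood apart. It was the lowest or highest HF-HI library for 51.7% of all genes and for 25 of the 49 members. For HF-HI replicate 11, with a relative depth of 0.55, that share was 21.5% of all genes. Why replicate 9 stood apart was not tested. Markers of cell types also moved with the groups. Of 14 neuronal genes, 9 were higher and 1 was lower in HF-HI (71.4% called, where 66.3% of all genes were). Their summed level lay between 16.76 and 16.87 in sham and between 16.91 and 17.03 in HF-HI. After removal of the GC trend 7 were higher and 1, Eno2, was lower. Of 10 astrocyte markers 5 were higher and 2 lower (70% called). Their summed level was 16.51 to 16.63 in sham and 16.61 to 16.71 in HF-HI. Of 3 microglial markers 1 was higher and 2 were lower (100% called). Of 10 oligodendrocyte markers 3 were higher and 7 did not pass (30% called). After removal of the GC trend 4 astrocyte markers were higher and 3 lower, and 0 microglial markers were higher and 2 lower. Of the oligodendrocyte markers 2 were then higher and 2 lower, where 60.2% of all genes were called. The part of cell makeup in the results was not tested.

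Phosphatase genes moved in both directions, and by small amounts. In HF-HI 15 members were higher, 19 were lower and 15 did not pass, so that 69.4% of the members were called, close to the background of 66.3%. The median difference was -0.018, against -0.0086 over all genes, and the median size of a difference was 0.13, against 0.16. Differences ran from -0.24 to 0.70. Over all genes, 1456 of 5544 reached 0.25 in size, with 987 of them called higher and 446 called lower. The 6 members that reached 0.25 in size were all higher in HF-HI. These were Ppp1r9b, Ppp1r13b, Ppp1r7, Ppp2r2c, Ppp3r1 and Ppp2r5b. The groups did not overlap for the first 4 of them and for no lower member. Over all genes 13.5% did not overlap between groups, 8.71% lying wholly higher and 4.76% wholly lower. After removal of the GC trend 17 members were higher and 16 lower, among them 12 and 12 of those called as deposited, and 29.2% and 31% of all genes were called (60.2% in all). The removal ended the calls of 10 members and made those of 9 others, and it turned the sign of 12 differences. With each library centred on its median, 10 were higher and 21 lower, where 26.1% and 42.9% of all genes were called (69% in all). Quantile normalization gave 13 higher and 20 lower, against 27.9% and 40.4% of all genes (68.3% in all). Without HF-HI replicate 9 there were 16 higher and 19 lower members, where 68.6% of all genes were called.

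**Figure D1:**
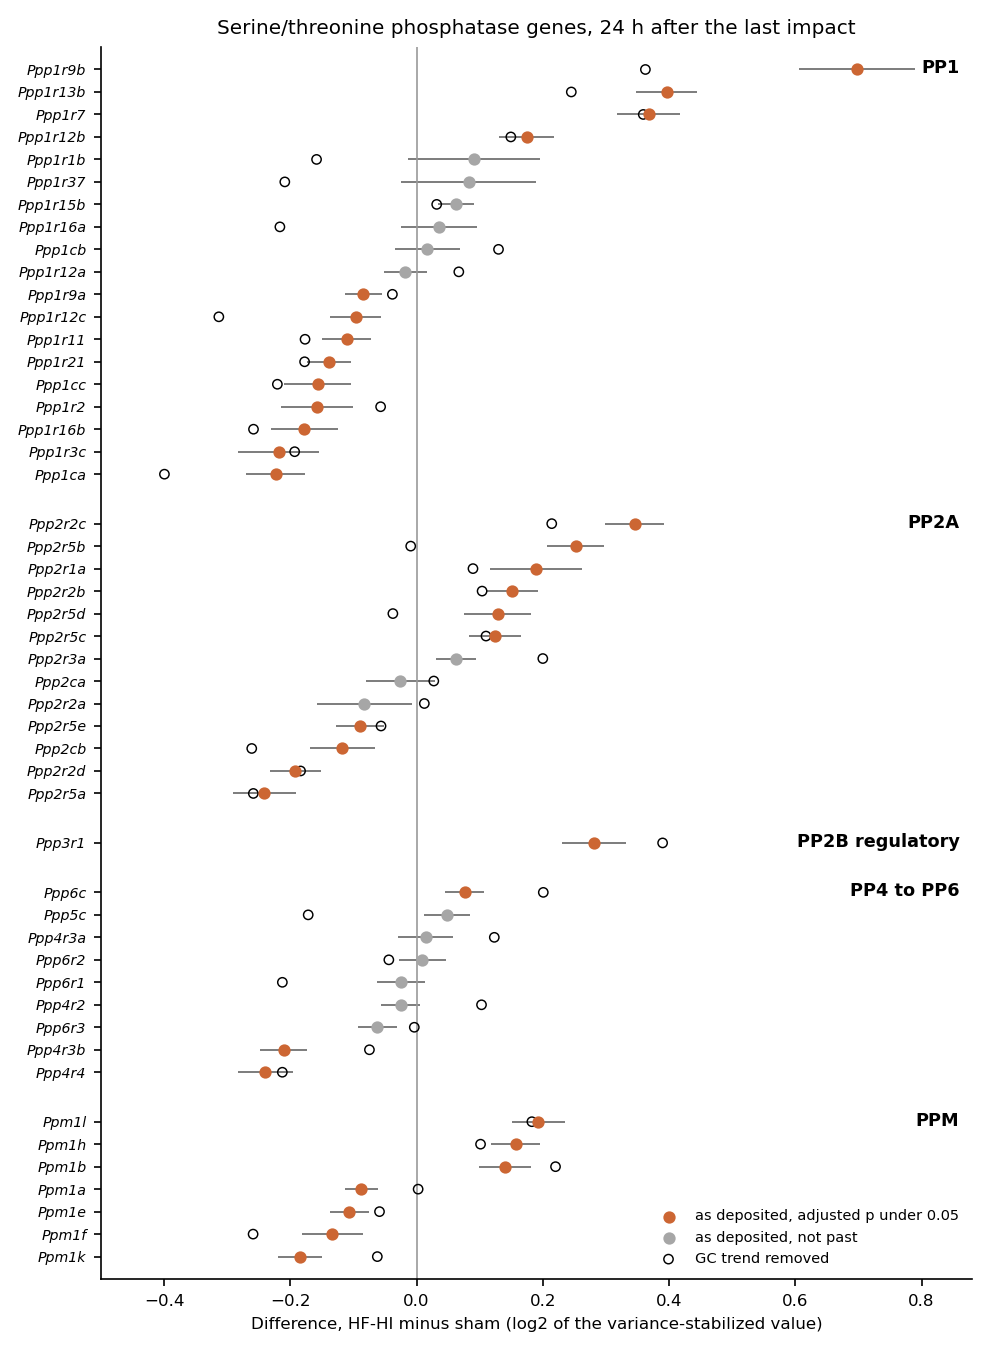
Difference between HF-HI and sham (log2, horizontal axis) for each of the 49 genes, ordered by class, with bars for the standard error (n = 10 sham and 11 HF-HI libraries). Filled orange points passed an adjusted p of 0.05, grey points did not, and open circles show the difference after removal of the GC trend. The largest difference, that of Ppp1r9b, was 0.70 as deposited and 0.36 after removal.

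Promoter sequence was available from RefSeq (GRCm38.p6) for 40 of the members, with 49 listed start sites. Windows of 250 bases before the start were searched on both strands for the GC box (GGGCGG), the cAMP response element (TGACGTCA), the TATA box (TATAAA) and the E-box (CACGTG). A GC box stood in 61.2% of the members' windows, in 60.1% of the windows of all genes in the table and in 32.7% of all promoter windows. The cAMP response element was found in 5 of the 49 windows, against 2.99% of the windows of all genes in the table. These 5 windows belonged to 4 genes, since the 2 windows of Ppp2r2d overlap and hold the same site. Ppm1a, Ppp1r12c and Ppp2r2d were lower in HF-HI and Ppp2ca did not pass. A TATA box was found before 2 members, Ppp1r2 and Ppm1f (4.08% of the members' windows, against 5.66% of those of all genes in the table). An E-box was found before 2 others, Ppp1r3c and Ppp1r9a (4.08% against 8.86%). The following 4 windows hold no annotated exon. They are shown as those of a B55 and a B56 subunit of PP2A that moved apart (Ppp2r2c and Ppp2r5a), of a PP1 catalytic subunit (Ppp1cc) and of a PPM gene with the cAMP response element (Ppm1a). Capitals mark matches to any of these motifs.
Ppp2r2c (higher in HF-HI), chr5:36868260-36868509, plus strand: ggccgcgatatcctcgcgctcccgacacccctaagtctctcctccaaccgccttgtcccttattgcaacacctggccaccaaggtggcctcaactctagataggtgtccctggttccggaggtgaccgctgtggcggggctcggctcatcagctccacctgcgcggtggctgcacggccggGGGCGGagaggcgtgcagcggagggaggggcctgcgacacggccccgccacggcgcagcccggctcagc
Ppp2r5a (lower), chr1:191397042-191397291, minus strand: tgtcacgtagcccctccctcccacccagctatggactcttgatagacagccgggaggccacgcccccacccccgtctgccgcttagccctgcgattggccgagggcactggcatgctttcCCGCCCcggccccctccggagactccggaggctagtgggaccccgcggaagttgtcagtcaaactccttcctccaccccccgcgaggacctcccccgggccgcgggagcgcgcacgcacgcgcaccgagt
Ppp1cc (lower), chr5:122158025-122158274, plus strand: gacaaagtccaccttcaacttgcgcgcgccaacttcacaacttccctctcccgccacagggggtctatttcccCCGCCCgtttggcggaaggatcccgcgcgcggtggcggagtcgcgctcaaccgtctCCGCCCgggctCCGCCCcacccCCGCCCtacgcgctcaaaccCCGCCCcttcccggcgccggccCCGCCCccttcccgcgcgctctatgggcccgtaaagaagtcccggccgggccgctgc
Ppm1a (lower), chr12:72760961-72761210, plus strand: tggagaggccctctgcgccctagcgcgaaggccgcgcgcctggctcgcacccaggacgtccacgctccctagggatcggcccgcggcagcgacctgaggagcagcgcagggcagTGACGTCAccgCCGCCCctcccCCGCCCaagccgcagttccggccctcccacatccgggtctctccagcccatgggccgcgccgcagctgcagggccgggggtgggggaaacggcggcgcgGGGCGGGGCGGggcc
A match is a description of the letters, and binding was not measured.

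As deposited, the genes for the catalytic cores were lower or did not pass, with 1 exception. Of the 7 catalytic genes of PP1, PP2A, PP5 and PP6, Ppp1ca, Ppp1cc and Ppp2cb were lower in HF-HI, Ppp6c was higher, and Ppp1cb, Ppp2ca and Ppp5c did not pass. Thus 57.1% were called, where 66.3% of all genes were, and 42.9% were lower, against 33.6%. After removal of the GC trend 2 were higher and 4 lower, or 85.7% called, where 60.2% of all genes were. Ppp1ca, which encodes the alpha isoform of PP1, ran in sham from 10.77 through a median of 10.86 to 11.09 and in HF-HI from 10.44 through 10.66 to 10.83. Only the ends of these ranges overlapped. The difference was -0.22 ± 0.046 (SE, adjusted p = 2.1e-04, limma), and it was -0.40 without the GC trend. Its exons share 225 bases, 8.93% of their length, with Rad9a on the opposite strand, and reads there may have been assigned to either gene.

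For Ppp1cc, the gamma isoform found in dendritic spines, the lowest, median and highest values were 11.14, 11.37 and 11.49 in sham and 10.92, 11.23 and 11.49 in HF-HI. The groups overlapped widely, with a difference of -0.16 ± 0.053 (SE, adjusted p = 0.0119, limma). Ppp1cb, the beta isoform that works with the myosin targeting subunits, lay between 12.08 and 12.45 in sham and between 12.02 and 12.40 in HF-HI. Its difference was 0.017 ± 0.052 (SE, adjusted p = 0.785, limma). After removal of the GC trend it was 0.13 with an adjusted p of 0.00715, which passed, and with libraries centred on their median it was -0.035. A gene of unsettled type (Gm43312) on the same strand shares 17.5% of its exons. On a scale corrected for exon length (value minus log2 of the exonic length in kb), the sham levels of Ppp1cc and Ppp1ca were 9.59 and 9.56, closer than the spread between libraries, and that of Ppp1cb was 8.78.

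Of the catalytic genes of PP2A, Ppp2ca ranged from 11.95 to 12.55 in sham and from 12.17 to 12.46 in HF-HI, so that the HF-HI values lay within the sham range. The difference of -0.026 ± 0.055 (SE, adjusted p = 0.691, limma) did not pass and changed sign with the processing. A non-coding gene on the opposite strand covers 39.9% of its exons. Ppp2cb was lower by a small amount, -0.12 ± 0.052 (SE, adjusted p = 0.0486, limma). This call was kept in 5 of the 21 fits that left out 1 library, with adjusted p-values up to 0.104, while removal of the GC trend gave -0.26.

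Ppp6c, the catalytic subunit of PP6, was 9.67 to 9.84 in sham and 9.76 to 9.91 in HF-HI. It rose by 0.076 ± 0.031 (SE, adjusted p = 0.0327, limma), and by 0.20 once the GC trend was removed. The call as deposited was kept in 13 of 21 fits without 1 library, with adjusted p-values up to 0.0639. Ppp5c, whose catalytic and regulatory parts lie in 1 chain, differed by 0.049 ± 0.037 (SE, adjusted p = 0.246, limma). It was -0.17 after removal of the GC trend, where it passed with an adjusted p of 2.73e-04, and so its direction depends on the processing.

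The regulatory genes of PP1 moved in both directions. Of 16, 4 were higher and 7 were lower, with differences from -0.22 to 0.70. The share called, 68.8%, was close to the 66.3% of all genes. With the GC trend removed 5 were higher and 7 lower, or 75% called, where 60.2% of all genes were. Ppp1r9b (ENSMUSG00000038976, chr11:94991035-95006899, plus strand) encodes spinophilin, which holds PP1 on the actin of dendritic spines, and it showed the largest difference of any member. In sham it ran from 11.55 through a median of 11.99 to 12.47, and in HF-HI from 12.51 through 12.71 to 12.91. Every HF-HI library thus lay above every sham library. The sham libraries were also more spread, with an SD of 0.32 against 0.10. The difference was 0.70 ± 0.092 (SE, adjusted p = 9.08e-07, limma), or 1.62-fold. Its exons are the richest in GC of all members (61.9%), and after removal of the GC trend the difference was 0.36, with an adjusted p of 6.73e-04.

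Ppp1r9a encodes neurabin, the relative of spinophilin with the same PP1-binding and actin-binding parts, and it moved the other way by a small amount. It ranged from 13.29 to 13.44 in sham and from 13.19 to 13.41 in HF-HI, the difference being -0.084 ± 0.029 (SE, adjusted p = 0.0136, limma). This call was lost after removal of the GC trend (-0.038, adjusted p = 0.207). Within a library, the level of Ppp1r9b minus that of Ppp1r9a ran from -1.79 to -0.87 in sham and from -0.79 to -0.41 in HF-HI, with no overlap. After removal of the GC trend these ranges were -1.58 to -0.80 and -0.89 to -0.66, which overlap.

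Ppp1r7 (chr1) encodes Sds22, a partner of newly made PP1 catalytic subunits. Its values ran from 9.55 through 9.81 to 9.98 in sham and from 10.09 through 10.14 to 10.26 in HF-HI. The groups did not overlap. The difference of 0.37 ± 0.050 (SE, adjusted p = 1.21e-06, limma) was nearly the same after removal of the GC trend (0.36). Ppp1r13b encodes ASPP1, a PP1-binding protein known as a partner of p53. Here the sham range was 8.27 to 8.63 and the HF-HI range 8.66 to 8.98, again without overlap, with a difference of 0.40 ± 0.048 (SE, adjusted p = 2.78e-07, limma) and 0.25 after removal.

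The myosin phosphatase targeting family held members of both kinds. Of its 5 genes 60% were called, where 66.3% of all genes were. With the GC trend removed all 5 were called, where 60.2% of all genes were. Ppp1r12b, a targeting subunit of myosin phosphatase, ran from 10.44 to 10.74 in sham and from 10.61 to 10.90 in HF-HI and rose by 0.17 ± 0.044 (SE, adjusted p = 0.0013, limma). Ppp1r16b, a membrane-bound relative, ran from 11.34 to 11.72 and from 11.14 to 11.49 in the same order of groups. It fell by 0.18 on the log2 scale (SE 0.053, adjusted p = 0.00518, limma). Of the other 3 genes, Ppp1r12c was lower and Ppp1r12a and Ppp1r16a did not pass. These 3 were named after their values were seen. Once the GC trend was removed all 3 passed, with Ppp1r12c at -0.31, Ppp1r16a turned from 0.035 to -0.22 (adjusted p = 4.13e-05) and Ppp1r12a turned from -0.018 to 0.067 (adjusted p = 0.0451). The call of Ppp1r12c was kept in 12 of 21 fits without 1 library, with adjusted p-values up to 0.0785.

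Further regulators of PP1 were lower. Ppp1r3c, which brings PP1 to glycogen, ran from 8.96 through 9.29 to 9.46 in sham and from 8.84 through 9.01 to 9.30 in HF-HI, a difference of -0.22 ± 0.064 (SE, adjusted p = 0.00453, limma). Most HF-HI libraries lay in the lower part of the sham range or below it. Ppp1r2, an inhibitor of PP1, was 10.64 to 11.08 in sham and 10.43 to 10.96 in HF-HI, with a difference of -0.16 ± 0.057 (SE, adjusted p = 0.0188, limma) that was -0.057 (adjusted p = 0.35) without the GC trend. Ppp1r21, an endosomal protein, fell by 0.14 on the log2 scale (SE 0.035, adjusted p = 0.0013, limma). Ppp1r11, which encodes another inhibitor and was named after its values were seen, was lower by a difference of -0.11, and of -0.18 without the GC trend. Of the members not described above, Ppp1r37 turned from 0.082, which did not pass, to -0.21 (adjusted p = 0.0371) after that removal, and Ppp1r15b did not pass either way, with 0.062 and 0.032. Both were named after their values were seen.

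**Figure D2:**
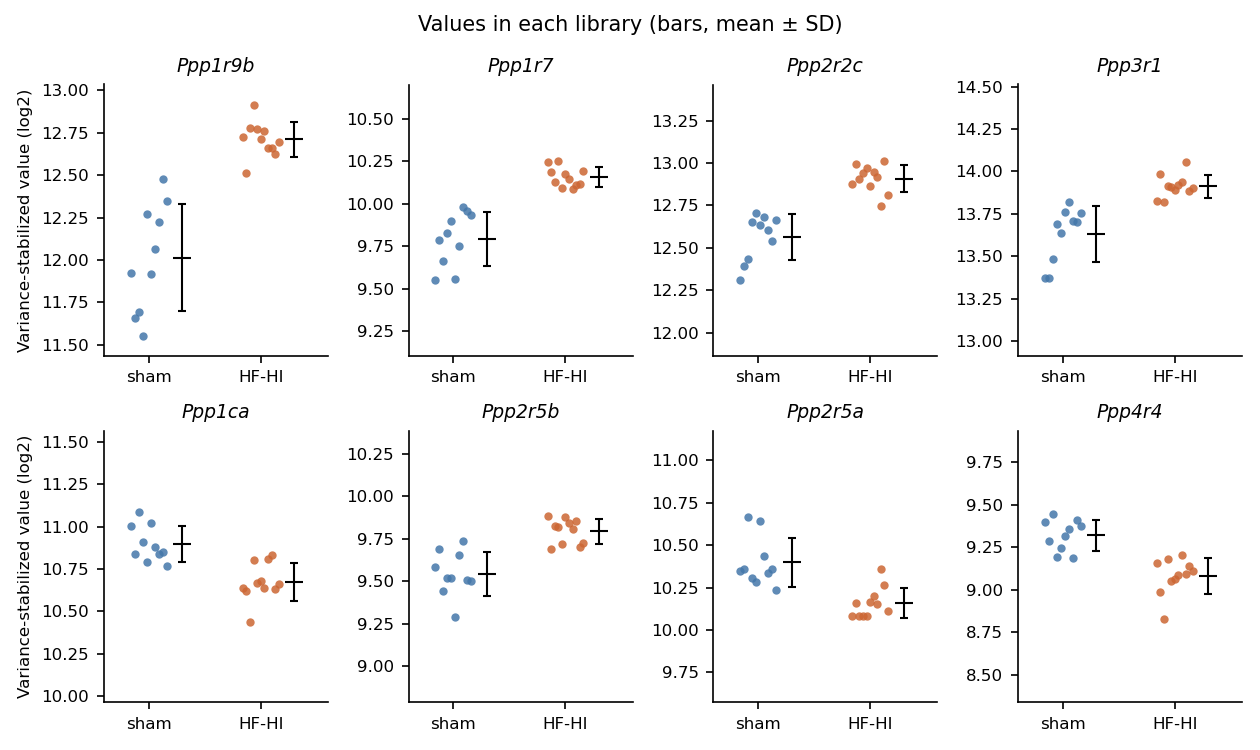
Variance-stabilized values (log2, vertical axis, each panel spanning the same height) of 8 genes in each sham (blue) and HF-HI (orange) library, with the mean and SD at the right of each group (n = 10 and 11). Ppp1r9b, Ppp1r7 and Ppp2r2c did not overlap between groups, and Ppp3r1 overlapped at the edges, with a highest sham value of 13.822 and a lowest HF-HI value of 13.818.

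Ppp1r1b encodes DARPP-32, which inhibits PP1 once PKA has phosphorylated it and is best known from striatal projection neurons. It did not pass. The values ran from 10.30 through 10.54 to 10.75 in sham and from 9.99 through 10.70 to 11.21 in HF-HI, which was the wider group, with an SD of 0.33 against 0.16. The difference was 0.091 ± 0.10 (SE, adjusted p = 0.449, limma), and -0.16 without the GC trend, with an adjusted p of 0.176. Its values moved from library to library with the mean of 9 striatal neuron markers, the ones in the table of a list of 11. In sham, Pearson's r was 0.89 (permutation p = 6.4e-04, n = 10) and Spearman's rho was 0.89 (permutation p = 0.00122). In HF-HI, r was 0.97 (permutation p = 2e-05, the smallest these resamples can give, n = 11) and rho was 0.91 (permutation p = 2.2e-04). Adjusted over the 2 groups, the p-values of r were 6.4e-04 and 4e-05. Leaving out the 2 libraries farthest from the median marker level gave r of 0.81 in sham and 0.92 in HF-HI. For the other 48 members r ran from -0.65 to 0.83 in sham and from -0.63 to 0.87 in HF-HI, but the next highest in both groups at once was Ppp1r7, with at least 0.45 in each. With the marker mean as a covariate, chosen after the data were seen, the difference of Ppp1r1b was 0.059 and its standard error fell from 0.10 to 0.036, with an adjusted p of 0.148 (limma). Striatal markers themselves were split, with 1 higher (Rasd2), 1 lower (Drd1) and 7 not passing. After removal of the GC trend 1 was higher and 2 were lower. Rasd2 went from 0.43 to 0.26, and Adora2a went from -0.082 to -0.35 and then passed (adjusted p = 0.0111, limma).

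**Figure D3:**
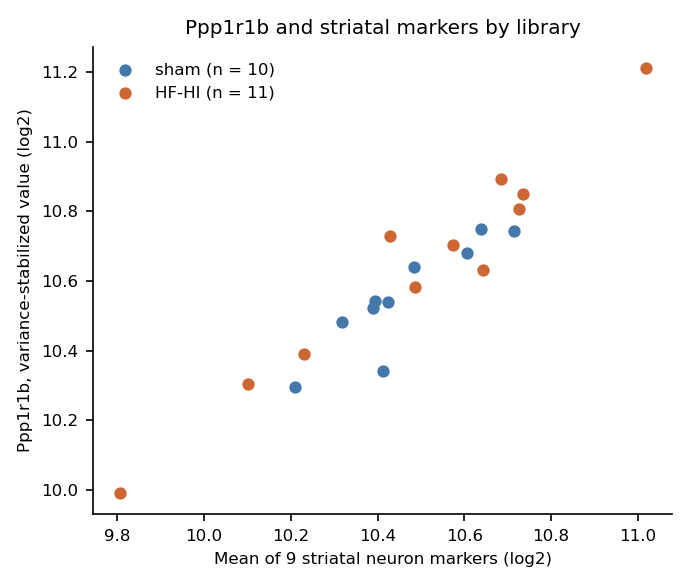
Ppp1r1b (log2, vertical axis) against the mean of 9 striatal neuron markers (log2, horizontal axis), 1 point for each library, sham in blue (n = 10) and HF-HI in orange (n = 11). The points follow a line in both groups (r of 0.89 and 0.97), and HF-HI reaches further at both ends, from 9.80 to 11.02 on the marker axis against 10.21 to 10.71 in sham.

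PP2A is built from a scaffold, a catalytic and a variable B subunit. Of its 13 genes 6 were higher, 4 were lower and 3 did not pass, so that 76.9% were called, where 66.3% of all genes were. With the GC trend removed 53.8% were called, where 60.2% of all genes were. The scaffold gene Ppp2r1a ran from 11.75 through 12.02 to 12.26 in sham and from 11.65 through 12.26 to 12.39 in HF-HI. Its lowest HF-HI value was that of replicate 9, and the other HF-HI libraries lay at 12.17 or above. The difference was 0.19 ± 0.073 (SE, adjusted p = 0.0259, limma). It was 0.25 without HF-HI replicate 9 and 0.16 without sham replicate 6, where the adjusted p was 0.056. After removal of the GC trend it was 0.089 (adjusted p = 0.207), and it did not pass.

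Among the 4 B55 subunits 2 rose and 1 fell (75% called, where 66.3% of all genes were). Ppp2r2c, the gamma form, which is found mostly in brain, ran from 12.31 through 12.62 to 12.70 in sham and from 12.75 through 12.92 to 13.01 in HF-HI. All HF-HI libraries lay above all sham libraries. Its difference was 0.35 ± 0.047 (SE, adjusted p = 1.32e-06, limma), a fold of 1.27, and 0.21 after removal of the GC trend. Ppp2r2b, the beta form, was 9.55 to 9.91 in sham and 9.68 to 9.99 in HF-HI and rose by 0.15 ± 0.042 (SE, adjusted p = 0.00279, limma). Ppp2r2d, the delta form, was 8.99 to 9.19 in sham. In HF-HI it ran from 8.79 through a median of 8.90 to 9.17, the highest library being replicate 9. It fell by 0.19 on the log2 scale (SE 0.040, adjusted p = 2.35e-04, limma). Ppp2r2a, the alpha form, did not pass, with -0.083, but did so without HF-HI replicate 9 (-0.13, adjusted p = 0.0491), and it was 0.012 after removal of the GC trend. It was named after its values were seen. Within a library, Ppp2r2c minus Ppp2r2d ran from 3.14 to 3.69 in sham and from 3.58 to 4.20 in HF-HI, and 10 of the 11 HF-HI libraries lay above all sham libraries.

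All 5 B56 genes were called, 3 higher and 2 lower, where 66.3% of all genes were. With the GC trend removed 1 was higher and 1 was lower, where 60.2% of all genes were called. Ppp2r5b, the beta form, ran from 9.29 through 9.52 to 9.74 in sham and from 9.69 through 9.82 to 9.88 in HF-HI. Its difference of 0.25 ± 0.045 (SE, adjusted p = 3.91e-05, limma) was -0.0093 after removal of the GC trend, with an adjusted p of 0.864. Ppp2r5a, the alpha form, ran from 10.24 through 10.36 to 10.67 and from 10.08 through 10.15 to 10.36 in the same order. The difference was -0.24 ± 0.050 (SE, adjusted p = 2.22e-04, limma) and -0.26 after removal. The other 3, named after their values were seen, moved less. Ppp2r5c and Ppp2r5d were higher by 0.12 and 0.13, and Ppp2r5e was lower, with -0.089. Of these, Ppp2r5d kept its call in 11 and Ppp2r5e in 9 of the 21 fits without 1 library, with adjusted p-values up to 0.0753 and 0.0911, and neither passed after removal of the GC trend (-0.038 and -0.056). The last PP2A gene, Ppp2r3a, which encodes a further kind of B subunit and was named after its values were seen, did not pass as deposited (0.063) and passed after removal, with 0.20.

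**Figure D4:**
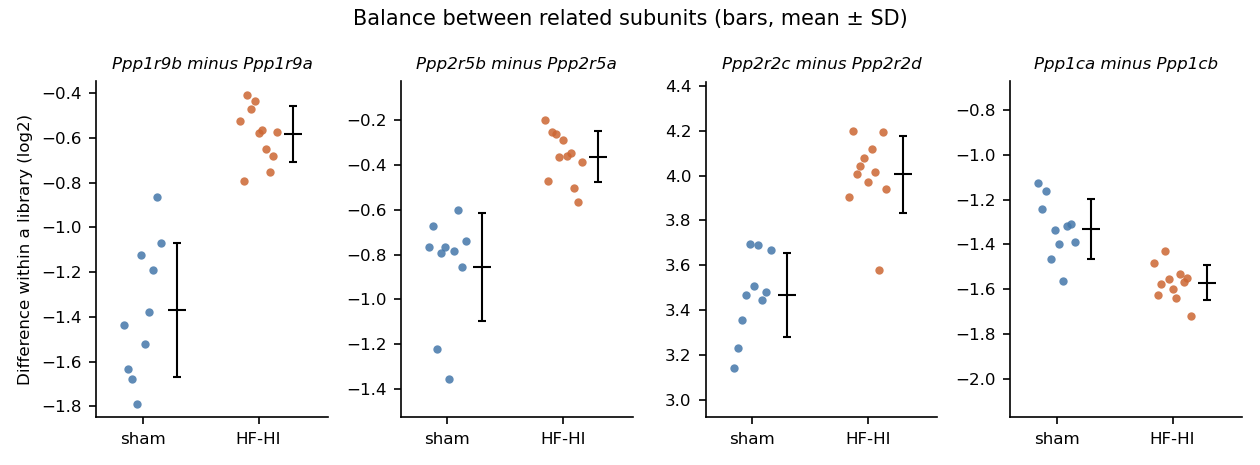
Difference between the values of 2 related subunits within the same library (log2, vertical axis, each panel spanning the same height), for sham (blue, n = 10) and HF-HI (orange, n = 11), with the mean and SD at the right. Ppp1r9b minus Ppp1r9a and Ppp2r5b minus Ppp2r5a did not overlap between groups, while Ppp2r2c minus Ppp2r2d and Ppp1ca minus Ppp1cb did.

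Within a library, Ppp2r5b minus Ppp2r5a ran from -1.36 to -0.60 in sham and from -0.56 to -0.20 in HF-HI. After removal of the GC trend the ranges were -1.08 to -0.56 and -0.70 to -0.34, which overlap. Ppp1ca minus Ppp1cb showed the reverse. Its ranges were -1.57 to -1.13 in sham and -1.72 to -1.43 in HF-HI as deposited, and -1.32 to -0.92 and -1.78 to -1.49, without overlap, after removal. A within-library difference does not depend on the scaling of that library, and these pairs were chosen with the results known, so no test is given.

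Calcineurin was represented by 1 regulatory gene. Ppp3r1 (ENSMUSG00000033953, chr11:17159263-17200375, plus strand) encodes calcineurin B, the calcium-binding subunit that all calcineurin enzymes of the brain need. Its values ran from 13.37 through 13.70 to 13.82 in sham and from 13.82 through 13.91 to 14.06 in HF-HI. The groups met at their edges only. The difference was 0.28 ± 0.051 (SE, adjusted p = 4.9e-05, limma), or 1.21-fold. At 41.2% GC its exons lie in the range where the median gene was lower in HF-HI, and after removal of the GC trend the difference was 0.39. It shares 462 exonic bases, 14.3% of its exons, with Wdr92 on the same strand.

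**Figure D5:**
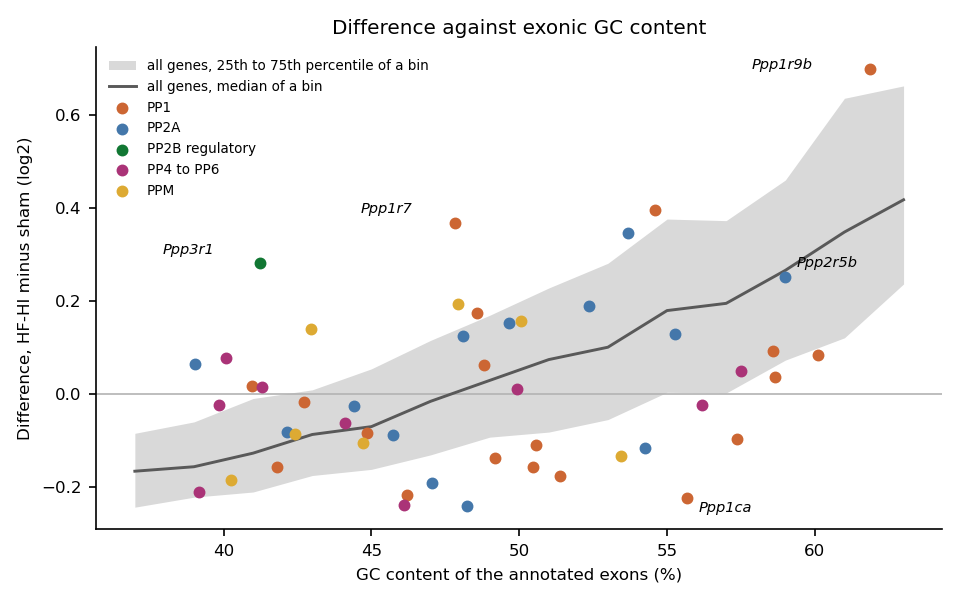
Difference between HF-HI and sham (log2, vertical axis) against the GC content of the annotated exons (%, horizontal axis). The line and band give the median and the 25th to 75th percentile of all genes in bins of 2 percentage points, and points are the 49 phosphatase genes coloured by class. The line rises from -0.17 to 0.42; Ppp2r5b lies on it, Ppp3r1 and Ppp1r7 lie above the band, and Ppp1ca lies below it.

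The genes of PP4 to PP6 had the smallest median difference in size of the classes (0.049). Of 9 members 1 was higher (Ppp6c), 2 were lower and 6 did not pass, so that 33.3% were called, where 66.3% of all genes were. After removal of the GC trend 66.7% were called, where 60.2% of all genes were. Both genes lower as deposited encode regulatory subunits of PP4. Ppp4r4 ran from 9.19 through 9.34 to 9.45 in sham and from 8.83 through 9.10 to 9.20 in HF-HI, with a difference of -0.24 ± 0.043 (SE, adjusted p = 4.47e-05, limma) and -0.21 after removal of the GC trend. Ppp4r3b was 9.57 to 9.78 in sham and 9.28 to 9.65 in HF-HI. Its difference of -0.21 ± 0.037 (SE, adjusted p = 3.91e-05, limma) was -0.075 after removal, with an adjusted p of 0.0512. None of the 3 regulatory genes of PP6 passed with limma as deposited. Their unadjusted p-values were 0.0587 for Ppp6r3, 0.514 for Ppp6r1 and 0.811 for Ppp6r2, and after removal of the GC trend Ppp6r1 passed, with -0.21, while Ppp6r3 was -0.0036 and Ppp6r2 turned from 0.0091 to -0.044. Of the other PP4 genes, Ppp4r2 turned from -0.025 to 0.10 (adjusted p = 0.0057) and Ppp4r3a went from 0.015 to 0.12 (adjusted p = 0.0042), so that both passed only after the removal. Genes of PP4 and PP6 other than the catalytic one and the lower ones were named after their values were seen.

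All 7 PPM genes passed, 3 higher and 4 lower, where 66.3% of all genes did. As deposited none reached 0.25 in size. With the GC trend removed 57.1% of the PPM genes were called, where 60.2% of all genes were. Ppm1l, an enzyme of the endoplasmic reticulum membrane, ran from 11.45 through 11.64 to 11.78 in sham and from 11.73 through 11.81 to 12.05 in HF-HI and rose by 0.19 ± 0.042 (SE, adjusted p = 3.4e-04, limma). Ppm1h, a relative that acts on Rab proteins, rose by 0.16 ± 0.039 (SE, adjusted p = 0.00126, limma). Ppm1b, the beta form of PP2C, rose by 0.14 ± 0.041 (SE, adjusted p = 0.00431, limma). The HF-HI ranges of these 2 genes were 10.08 to 10.33 and 10.89 to 11.06, and the sham ranges were 9.86 to 10.12 and 10.65 to 10.98. They kept their calls after removal of the GC trend, at 0.10 for Ppm1h and 0.22 for Ppm1b, but Ppm1b did not pass with libraries centred on their median (0.088).

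Of the lower PPM genes, Ppm1k, the mitochondrial enzyme that acts on branched-chain ketoacid dehydrogenase, ran from 11.20 through 11.31 to 11.40 in sham and from 11.02 through 11.10 to 11.24 in HF-HI. The difference was -0.18 ± 0.035 (SE, adjusted p = 7.56e-05, limma), and -0.062 (adjusted p = 0.0514) without the GC trend. Ppm1f, which acts on CaMKII, was 9.50 to 9.81 in sham and 9.26 to 9.65 in HF-HI. It fell by 0.13 on the log2 scale (SE 0.048, adjusted p = 0.0178, limma) as deposited and was -0.26 after removal, the only lower PPM call that was kept there. Ppm1e, a relative of Ppm1f, fell by 0.11 (SE 0.031, adjusted p = 0.00454, limma) and was -0.059 after removal (adjusted p = 0.0793). Ppm1a, the alpha form of PP2C, was 11.07 to 11.29 in sham and 11.07 to 11.17 in HF-HI. Its difference of -0.088 ± 0.026 (SE, adjusted p = 0.00484, limma) came to 0.0024 after removal.

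Other genes of these pathways were described from a list of 52 PP1, PP2A, PP4, PP6 and calcineurin partners and further phosphatases, of which 35 were in the table. In HF-HI 15 were higher, 17 were lower and 3 did not pass, so that 91.4% were called, where 66.3% of all genes were. With the GC trend removed 11 were higher and 12 lower, or 65.7% called, where 60.2% of all genes were. The list was chosen with earlier results of these data known, so these shares describe it and test nothing. The largest difference was that of Ctdsp2, a phosphatase of the RNA polymerase II tail. It ran from 8.79 to 9.15 in sham and from 9.25 to 9.82 in HF-HI, a difference of 0.65 ± 0.056 (SE, adjusted p = 2.64e-09, limma). Phactr1, a binding partner of PP1 and actin, ran from 11.89 to 12.21 and from 12.26 to 12.62, with a difference of 0.41 ± 0.047 (SE, adjusted p = 1.45e-07, limma). Anp32e, of a family of PP2A inhibitors, was higher by 0.36 (SE 0.043, adjusted p = 2.11e-07, limma). For all 3 genes the groups did not overlap. On the whole list this held for 6 of 35 genes, 3 higher and 3 lower, and over all genes for 13.5%. Ankrd52, a partner of PP6, was higher by 0.30 (SE 0.070, adjusted p = 6.83e-04, limma), and by 0.17 after removal of the GC trend.

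The 2 lower genes with the largest differences on that list encode mitochondrial phosphatases. Pdp1, which acts on pyruvate dehydrogenase, ran from 11.58 to 12.36 in sham and from 11.44 to 11.93 in HF-HI, a difference of -0.29 ± 0.084 (SE, adjusted p = 0.00367, limma). It was -0.18 after removal of the GC trend (adjusted p = 0.0518). Pgam5 was 8.91 to 9.16 in sham and 8.53 to 8.88 in HF-HI, and the groups did not overlap, with a difference of -0.29 ± 0.043 (SE, adjusted p = 5.16e-06, limma). By group, PP2A, PP4 and PP6 partners were 6 higher and 10 lower of 16, PP1-binding proteins 2 and 2 of 4, calcineurin partners 4 and 1 of 6, and other phosphatases 3 and 4 of 9.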

How the data were processed

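Stranded total RNA libraries of cortex, depleted of ribosomal RNA and pooled 6 at a time, were sequenced by the authors, aligned to mm10 with STAR, counted per transcript with eXpress and normalized with DESeq2. The deposited values are variance-stabilized, on a log2 scale, 1 for each Ensembl gene and library, with low genes already removed, and every column was matched to a library. The gene annotation and the releases of STAR and eXpress are not given in the sources used here, nor is the strand setting of the counting, and 20 members share exonic bases with another annotated gene. Variance stabilization compresses the differences of low genes. Counts were not used here, so depth was estimated from the spacing of low values, relative to the median of all libraries.

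Symbols, positions, exonic lengths (union of exons) and GC content came from GENCODE for GRCm38, with a symbol for 5541 and a GC content for 5539 genes. Groups were taken from sample titles. HF-HI was compared with sham with the moderated linear models of limma (version 3.58.1, R 4.3.3, the trend option of eBayes on, tests in both directions, p adjusted over 5544 genes by the Benjamini-Hochberg method, threshold 0.05), tested beforehand on simulated data. The GC trend of each library was removed with a lowess curve of span 0.3. Permutation tests used 100000 resamples (Python 3.11.15, scipy 1.17.1). Summed levels of markers add the values on a linear scale. Each p-value measures the spread between mice of this experiment.

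Named genes were every catalytic subunit and PPM gene, Ppp3r1, the 8 PP1, 6 PP2A and 3 PP4 to PP6 regulatory genes with the largest called differences, Ppp1r9a, Ppp1r9b and Ppp1r1b, and the 6 largest called differences among the partners. The members and lists were chosen with earlier results of these data known. Alternatives covered the threshold, the smallest difference counted, the trend of eBayes, scaling, a filter on low genes, GC content, depth, a replicate block and leaving out each library.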

Additional observations from a re-analysis of the deposited data

Results flagged for a closer look

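Of 39 named genes, 1 had a sham library far from the others. For Ppm1a, sham replicate 5 was the lowest at 11.07, and the gap to the next sham library took up 0.541 of the range of the group (Dixon's test). Chance alone marks about 1 in 20 groups. HF-HI, with 11 libraries, was not examined in this way.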

How the results depend on the processing

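Requiring a difference of at least 0.25 left 6 members higher and 0 lower, where it left 987 higher and 446 lower of all 5544 genes. By class there were then 0 PP1 genes lower, 2 PP2A genes higher and 0 lower, and 0 and 0 in both PP4 to PP6 and PPM. Among the partners it left 7 and 5. With each library centred on its median, which moved the median of all genes by -0.052, PP2A had 3 higher, and PP4 to PP6 had 0 higher and 4 lower, while Ppp1cb was -0.035 and Ppp5c -0.0033. Quantile normalization, which moved it by -0.037, gave 0 higher in PP4 to PP6 and -0.0076 for Ppp1cb. With the GC trend removed, PP4 to PP6 had 3 higher and PPM 1 lower. The sign then turned for 12 members. Among the genes named by rule these were Ppp2ca (0.027), Ppp5c (-0.17), Ppm1a (0.0024), Ppp2r5b (-0.0093) and Ppp1r1b (-0.16), and the others were Ppp1r37, Ppp1r16a, Ppp1r12a, Ppp2r5d, Ppp2r2a, Ppp6r2 and Ppp4r2. With the replicate block added to this, PP2A had 3 higher, PP4 to PP6 3 higher and PPM 1 lower, and the 5 genes named by rule were 0.029, -0.16, 0.0017, -0.010 and -0.16 in the same order. Relative depth as a covariate left 2 PP2A genes lower and gave 0.0058 for Ppp2ca. The cause was not tested.

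Replicate numbers did not pair the samples: the correlation of same-numbered deviations ran from -0.31 to 0.36, was over 0.1 in 4 of 10 pairs, and 0 sham libraries correlated best with their own number. A replicate block over replicates 1 to 10 gave 12 members higher and 15 lower, and 0 higher in PP4 to PP6.

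Leaving out 1 library at a time (21 fits) gave 12 to 16 members higher and 16 to 19 lower. The ranges were 4 to 5 and 8 to 9 in PP1, 4 to 6 and 2 to 4 in PP2A, 0 to 1 and 2 to 3 in PP4 to PP6, 3 to 3 and 4 to 4 in PPM, and 14 to 15 and 16 to 17 among the partners. Ppp2ca ran from -0.063 to 0.0026, the latter without sham replicate 6. Of the 34 called members 28 kept their call in all 21 fits. Ppp3r1 kept its direction and its call under all alternatives run. Other thresholds, filters and eBayes settings kept the counts of members and classes within 1.5 times those reported.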
